A study of Mus musculus with 18 samples.

Results

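The GLUT family comprises the facilitative sugar transporters encoded by the Slc2a genes. The 9 members described here are Slc2a1, Slc2a3, Slc2a4, Slc2a5, Slc2a6, Slc2a8, Slc2a10, Slc2a12 and Slc2a13, chosen by gene name from the 21923 genes of the deposited table. Their levels were compared between genotypes in 7 cortical libraries of immunoprecipitated (IP) RNA, 3 labelled control and 4 labelled cKO. The RNA was obtained by translating ribosome affinity purification (TRAP), in which EGFP-tagged ribosomes are pulled down together with the mRNA they carry. The input libraries of the same study were not analysed here, so no ratio of IP to input is given.

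Per the labels, all mice were male and on a C57BL/6 background. The cKO mice were GLUT1 flox/flox;GLAC +/wt and the control mice GLAC +/wt, labelled WT. Both genotypes therefore carried the tamoxifen-inducible Cre driver under the GLAST (Slc1a3) promoter, and the control mice lacked the floxed alleles. Both received a Cre-dependent AAV that encodes the EGFP-tagged ribosomal protein L10a under the hGFAP promoter, and tamoxifen 7 days later for 5 days at an age of 8 to 10 weeks. RNA was collected about 60 days after tamoxifen from mice kept in the home cage. Recombination of the viral tag and of the floxed alleles are separate events, so that a tagged cell need not have lost Slc2a1. Total estimated counts ranged from 12570309 to 40734343 per library, with a median of 28938380 in the control group and 19292971 in the cKO group. The 7 columns were assigned to genotype groups by library names in the study's source data, and no replicate number of the labels could be tied to them. In the labels, every IP sample has an animal of its own.

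GLUT proteins carry hexoses across membranes down their concentration gradient, without spending energy. GLUT1 serves the blood-brain barrier endothelium and astrocytes, whereas GLUT3 is the main glucose transporter of neurons and GLUT5 is a fructose transporter found in microglia. Other members, such as GLUT8, reside mostly on intracellular membranes, and GLUT13 is a proton-coupled myo-inositol transporter. Whether other members change when GLUT1 is deleted from astrocytes was the question behind the comparison of genotypes.

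Astrocyte markers were abundant in every IP library, and RNA of other cell types was present as well. The gap junction gene Gja1 lay between 1042 and 1233 CPM (estimated counts scaled to 1e6 per library after TMM normalization) over the 7 libraries, and the summed level of 10 astrocyte markers lay between 30226 and 45823 CPM in the control group and between 29967 and 57861 CPM in the cKO group. The sum of 10 neuron markers lay between 3192 and 4251 CPM and between 2741 and 4329 CPM, respectively. A set of 3 libraries, AstroTRAP_19 of the control group and AstroTRAP_5 and AstroTRAP_17 of the cKO group, had the highest neuron sums (4251, 4238 and 4329 CPM) and the lowest astrocyte sums (30226, 31248 and 29967 CPM). The sums rest mostly on their most abundant genes, such as Aldoc with 17562 CPM in AstroTRAP_5. Single markers did not all follow them. Fgfr3 was higher in AstroTRAP_5 (910 CPM) than in AstroTRAP_15 (895 CPM), and Gad1 was lowest in AstroTRAP_5 and AstroTRAP_19 (23.7 and 29.0 CPM). The study's methods state that IP libraries rich in neuronal transcripts had been left out, so the 7 libraries were in part selected on this measure. They also name a sample left out for few reads. Of the 5 control IP samples in the labels 2 were not used, whereas the labels list no cKO IP samples beyond the 4 used. The reason for each omission is not known, and its bearing on the comparison of genotypes was not tested. Endothelial markers were low, and the 10 genes summed to at most 25.4 CPM in the control group and 35.8 CPM in the cKO group. Kdr was at 0 counts in all 3 control libraries and in AstroTRAP_17, and at most at 13 counts elsewhere. Esam was the only endothelial marker tested whose groups did not overlap, as for 5.11% of all genes tested. It averaged 4.51 CPM in the control group and 2.23 CPM in the cKO group and did not pass the test. All 10 oligodendrocyte markers had a log2 fold change below 0, cKO against control (median -0.39, beside 0.012 over all genes tested), and 0 of them passed the test. An unadjusted edgeR p under 0.05 was found for 2 of them, Mobp and Cldn11, beside 2.58% of all genes tested. The summed level of the oligodendrocyte markers overlapped between the groups and was highest in the cKO library AstroTRAP_5, at 924 CPM. In pulled-down RNA of this kind, fewer cells of a type, less RNA per cell and a different purity of the pulldown cannot be told apart.

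None of the 9 GLUT genes passed the test for a difference between the genotypes. All 9 passed the low-count filter, and 0 of them had an adjusted p under 0.05 over the 13296 genes tested (quasi-likelihood test of edgeR, Benjamini-Hochberg adjusted p = 0.9996 for each). With all 7 libraries no member reached an unadjusted p under 0.05 either, and edgeR's exact test and DESeq2 also called 0 members. Over all genes tested, 0.0451% were called, 0.0376% as higher and 0.00752% as lower in the libraries labelled cKO, and 2.58% had an unadjusted p under 0.05. The control and cKO libraries overlapped for each of the 9 genes, whereas 5.11% of all genes showed no overlap. The log2 fold change, cKO against control, was above 0 for 4 members and below 0 for 5, with a median of -0.013, beside a median of 0.012 over all genes tested.

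**Figure D1:**
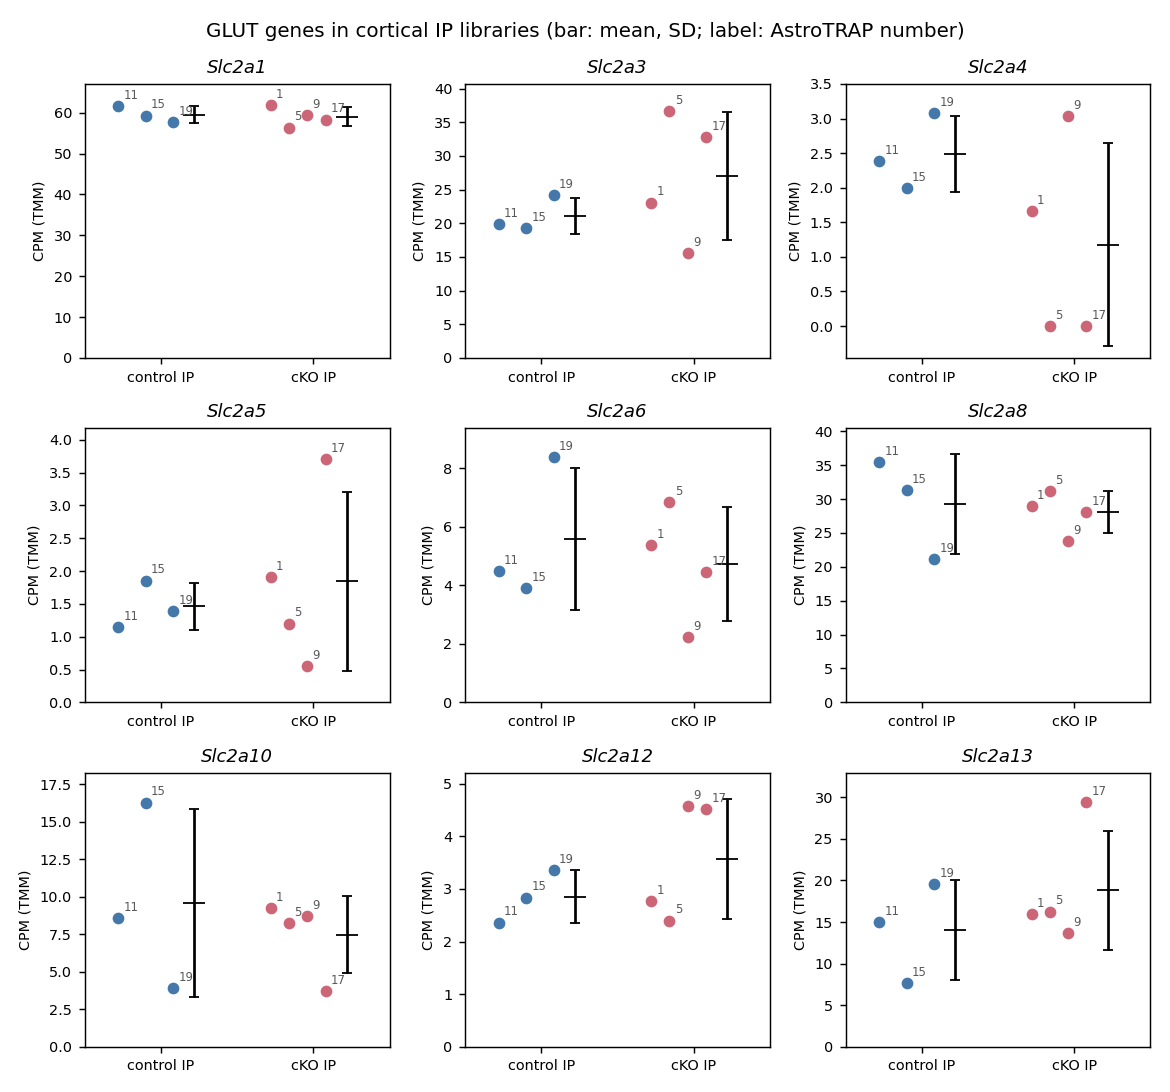
CPM (TMM) of the 9 GLUT genes, 1 panel per gene, with 1 point per IP library labelled by its AstroTRAP number and the mean with SD beside each group. Slc2a1 lay between 56.4 and 61.9 CPM in all libraries, and the groups overlapped in every panel.

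Slc2a1 encodes GLUT1, the transporter targeted in the cKO mice, and occupies positions 119108745 to 119137330 of chromosome 4 in the GRCm38 build, which is used for all positions given. Its estimated counts in the IP libraries ranged from 787 to 2427. It had 61.7, 59.3 and 57.6 CPM in the control libraries AstroTRAP_11, AstroTRAP_15 and AstroTRAP_19. In the cKO libraries AstroTRAP_1, AstroTRAP_5, AstroTRAP_9 and AstroTRAP_17 it had 61.9, 56.4, 59.4 and 58.3 CPM. The groups overlapped, with the highest and the lowest library both in the cKO group. Between groups it differed by -0.013 on the log2 scale (standard error, SE, 0.12, edgeR adjusted p = 0.9996), with a 95% interval from -0.28 to 0.25. On the linear scale this interval spans 0.826 to 1.19 times the control level. Counted over the whole gene, the targeted transcript was thus not lower in the libraries labelled cKO beyond the spread between libraries. This count does not resolve single exons, so it can neither bear out nor contradict the genotype labels. The table holds a single value per gene and library. The study assessed the deletion in IP RNA by qPCR and on reads from part of the Slc2a1 exons, in a separate alignment. It also examined GLUT1 protein by immunoblot and immunostaining. None of these data were analysed here. The share of the count from exons outside the floxed part was not tested, and genotypes are given as labelled throughout. Of all members, Slc2a1 varied least between libraries. Its coefficient of variation was 3.40% in the control group and 3.90% in the cKO group, close to the 2.49% and 3.08% that counting error alone would give.

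Slc2a3 encodes GLUT3 and lies on chromosome 6 from 122727809 to 122802363. It had 19.8, 19.3 and 24.2 CPM in the control libraries in the order given above. In the cKO libraries it had 23.1, 36.7, 15.6 and 32.8 CPM. Among the cKO libraries, AstroTRAP_5 and AstroTRAP_17 lay above every control library and AstroTRAP_9 lay below every control library. The group levels were 21.1 ± 2.69 CPM (SD, n = 3) and 27.0 ± 9.55 CPM (SD, n = 4). This corresponds to a log2 fold change of 0.36 (SE 0.27, edgeR adjusted p = 0.9996), with a 95% interval from -0.25 to 0.96. It was 0.17 without AstroTRAP_5 and 0.54 without AstroTRAP_9, where the 95% interval lay between 0.053 and 1.03 and the adjusted p from edgeR was 0.9994. Without AstroTRAP_9 the unadjusted p of the same edgeR fit was 0.0332, the only one under 0.05 for a member in any fit. The 3 libraries with the highest Slc2a3 level, AstroTRAP_5, AstroTRAP_17 and AstroTRAP_19, were also those with the highest neuron marker sums, and AstroTRAP_9 was lowest in both. This was not particular to neuron markers. In the same order, these 3 libraries also had the highest microglia sums (123, 108 and 103 CPM) and endothelial sums (35.8, 20.5 and 25.4 CPM). AstroTRAP_9 was lowest in these sums as well (59.9 and 15.7 CPM). Among these 3 libraries Slc2a3 was at 24.2 CPM in the control library and at 36.7 and 32.8 CPM in the cKO libraries. Among the other 4 it was at 19.8 and 19.3 CPM in the control libraries and at 23.1 and 15.6 CPM in the cKO libraries. With the neuron marker level as a covariate, a fit chosen after these levels had been seen, the log2 fold change was 0.27 and its standard error fell from 0.27 to 0.16 (adjusted p = 0.9995 from edgeR). The split of the libraries was likewise made after seeing the levels. Because the covariate was chosen on these same libraries, its smaller standard error cannot decide on the part of neuronal RNA. No other cell type sum was used as a covariate. The part of RNA from neurons or other cell types in the Slc2a3 levels was not tested.

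**Figure D2:**
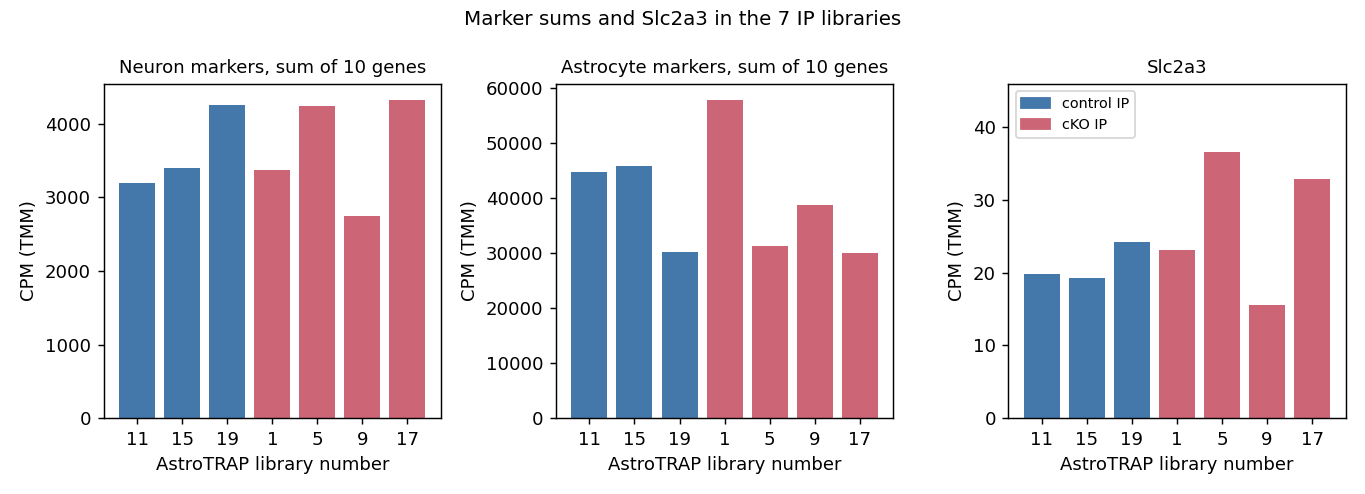
Summed CPM of 10 neuron markers, summed CPM of 10 astrocyte markers, and CPM of Slc2a3, with 1 bar per IP library coloured by genotype. AstroTRAP_19, AstroTRAP_5 and AstroTRAP_17 had the highest neuron sums, the lowest astrocyte sums and the highest Slc2a3 levels.

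Slc2a4 encodes GLUT4, the insulin-responsive transporter of muscle and fat, and lies on chromosome 11 from 69942286 to 69948216. It had 2.39, 2.00 and 3.08 CPM in the control libraries. In the cKO libraries it had 1.67, 0, 3.03 and 0 CPM. AstroTRAP_5 and AstroTRAP_17 held 0 estimated counts, while AstroTRAP_9 held 61.0 and lay among the control values. A total of 3 counts, the floor used for detection, corresponds to 0.124 CPM in AstroTRAP_5 and 0.239 CPM in AstroTRAP_17. In the fit, log2 fold change was -1.07 with an SE of 1.29 (edgeR adjusted p = 0.9996), and its 95% interval reached from -3.93 to 1.78, the widest of the family. It was -0.65 without AstroTRAP_5, -2.17 without AstroTRAP_9 and -2.77 with the neuron marker level as a covariate, and it passed in none of these fits. Both libraries at 0 had high neuron marker sums, as did AstroTRAP_19 with the highest Slc2a4 level, and the part of cell type composition in these zeros was not tested.

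Slc2a5 encodes GLUT5 and lies on chromosome 4 from 150119344 to 150144168. Its level was 1.14, 1.85 and 1.39 CPM in the control libraries. It was 1.91, 1.20, 0.546 and 3.71 CPM in the cKO libraries. The highest and the lowest value both belonged to cKO libraries, AstroTRAP_17 and AstroTRAP_9, and rested on 49.6 and 10.7 estimated counts. The 9 microglia markers used, which summed to 70.2, 75.3 and 103 CPM in the control group and to 67.9, 123, 59.9 and 108 CPM in the cKO group, were also lowest in AstroTRAP_9. They were highest in AstroTRAP_5, where Slc2a5 was at 1.20 CPM. For Slc2a5 a log2 fold change of 0.32 was obtained (SE 0.76, edgeR adjusted p = 0.9996).

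Slc2a8 encodes GLUT8 and lies on chromosome 2 from 32972981 to 32982083. It had 35.5, 31.3 and 21.2 CPM in the control libraries. In the cKO libraries it had 29.0, 31.2, 23.8 and 28.1 CPM. All cKO values lay between the lowest and the highest control value. The group levels were 29.3 ± 7.37 CPM (SD, n = 3) and 28.0 ± 3.08 CPM (SD, n = 4). Between groups Slc2a8 differed by -0.066 on the log2 scale (SE 0.20, edgeR adjusted p = 0.9996), and its 95% interval from -0.51 to 0.37 was the second narrowest of the family. On the linear scale the interval spans 0.704 to 1.30 times the control level.

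Slc2a6 and Slc2a10, both also on chromosome 2, varied several-fold between libraries. Slc2a6 (27021363 to 27028000) encodes GLUT6, a transporter of lysosomal membranes. It had 4.47, 3.89 and 8.37 CPM in the control libraries and 5.37, 6.85, 2.24 and 4.45 CPM in the cKO libraries. The highest value was that of the control library AstroTRAP_19, 3.74 times the lowest, which was that of AstroTRAP_9. Slc2a10 (165503897 to 165519917) encodes GLUT10. It had 8.56, 16.3 and 3.89 CPM in the control libraries and 9.26, 8.25, 8.74 and 3.71 CPM in the cKO libraries. The highest level, in AstroTRAP_15, was 4.40 times the lowest, in AstroTRAP_17. Its coefficient of variation in the control group was 65.3%, against 7.65% from counting error alone. The log2 fold changes were -0.23 for Slc2a6 (standard error 0.46) and -0.35 for Slc2a10 (standard error 0.47), and neither passed (adjusted p = 0.9996 from edgeR for both).

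Slc2a12 encodes GLUT12 and lies on chromosome 10 from 22644990 to 22703880. It had 2.36, 2.84 and 3.37 CPM in the control libraries. In the cKO libraries it had 2.78, 2.40, 4.57 and 4.52 CPM, so that AstroTRAP_9 and AstroTRAP_17 lay above all control libraries and AstroTRAP_1 and AstroTRAP_5 within their range. A log2 fold change of 0.32 was obtained (SE 0.47, edgeR adjusted p = 0.9996), with values from 0.17 (without AstroTRAP_9) to 0.47 (without AstroTRAP_5) when 1 library was left out.

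Slc2a13, which encodes the myo-inositol transporter GLUT13 (HMIT), lies on chromosome 15 from 91267691 to 91573261. It had 14.97, 7.67 and 19.6 CPM in the control libraries. In the cKO libraries it had 15.9, 16.3, 13.7 and 29.4 CPM. AstroTRAP_17 lay above all other libraries, and the remaining cKO libraries lay within the control range. The group levels were 14.1 ± 6.00 CPM (SD, n = 3) and 18.8 ± 7.16 CPM (SD, n = 4). Its log2 fold change of 0.42 was the highest of the family (SE 0.35, edgeR adjusted p = 0.9996), with a 95% interval from -0.36 to 1.19. The log2 fold change was 0.12 without the cKO library AstroTRAP_17, 0.12 without the control library AstroTRAP_15 and 0.72 without the control library AstroTRAP_19.

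**Figure D3:**
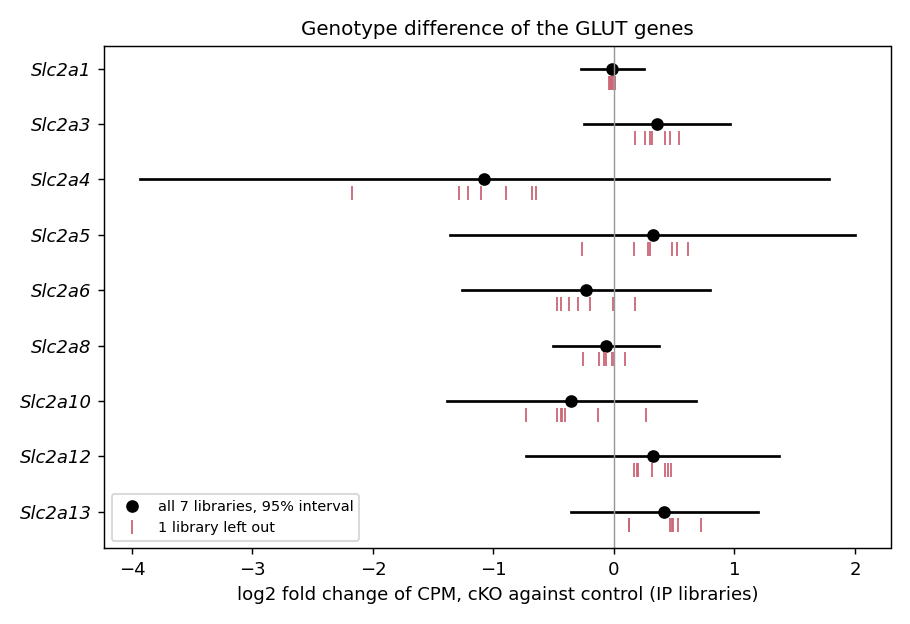
Log2 fold change of CPM, cKO against control, for the 9 GLUT genes, with the 95% interval from all 7 libraries (black) and the values with each library left out in turn (red marks). Every interval includes 0, from the narrowest for Slc2a1 (-0.28 to 0.25) to the widest for Slc2a4 (-3.93 to 1.78).

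The precision of these comparisons differed widely between members. The intervals of Slc2a1 and Slc2a8 did not reach a change of 1 on the log2 scale in either direction, and that of Slc2a3 reached 0.96. Those of Slc2a4, Slc2a5, Slc2a6, Slc2a10, Slc2a12 and Slc2a13 extended beyond 1 in at least one direction. A single gene tested on its own by an exact two-sided permutation test of 3 against 4 libraries cannot give a p below 0.0571, and the lowest among the members was 0.229, for Slc2a4.

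As a share of the estimated counts of all 12 GLUT genes in the table, Slc2a1 took 40.8%, 41.0% and 40.4% in the control libraries and 41.0%, 35.4%, 45.1% and 35.4% in the cKO libraries. Slc2a3 took 13.1%, 13.3% and 17.0%, and 15.3%, 23.0%, 11.8% and 19.9%. The cKO libraries with the lowest Slc2a1 share, AstroTRAP_5 and AstroTRAP_17, were those with the highest Slc2a3 share. Shares of the same total are bound to each other, so that a higher Slc2a3 level by itself lowers the Slc2a1 share. The Slc2a1 level stayed between 56.4 and 61.9 CPM in the cKO libraries. The summed GLUT counts amounted to 146, 137 and 154 for every 1e6 total counts in the control libraries and to 132, 170, 133 and 177 in the cKO libraries. The groups overlapped in this sum, with the 2 highest and the 2 lowest libraries all in the cKO group.

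**Figure D4:**
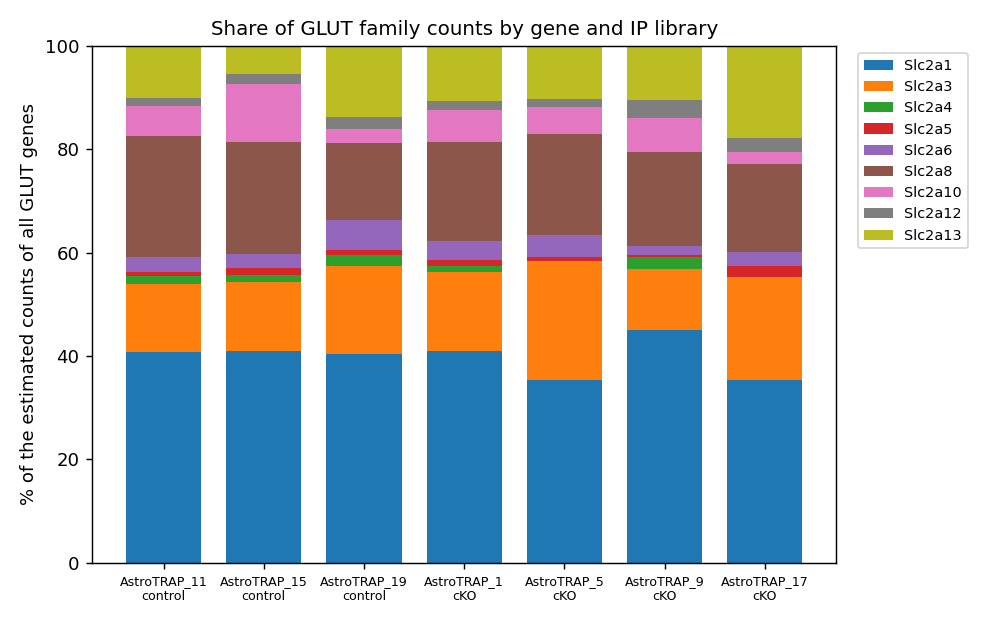
Share of the estimated counts of all GLUT genes taken by each of the 9 genes, in percent, with 1 stacked bar per IP library. Slc2a1 took between 35.4% and 45.1% in every library. Shares depend on transcript length and compare libraries, not genes.

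The table holds 3 further GLUT genes, Slc2a2, Slc2a7 and Slc2a9, whose counts were too low for the test. Slc2a7 had 0 estimated counts in every IP library. Slc2a2, which encodes the liver and beta cell transporter GLUT2, had at most 11 counts, and Slc2a9, which encodes the urate transporter GLUT9, at most 4. A difference in these genes was not detectable at this depth.

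Genes that act beside the GLUT proteins were compared by lists, and genes with the lowest p of each list are named. Of 8 other sugar transporters, 4 were tested and 0 passed in either direction, with a median log2 fold change of 0.30. Slc5a11, a sodium-coupled myo-inositol transporter, had 0.394 ± 0.216 CPM (SD, n = 3) in the control group and 1.57 ± 1.86 CPM (SD, n = 4) in the cKO group. Its groups overlapped (log2 fold change 1.96, SE 1.12), and its control level lay near the detection floor of 0.0736 to 0.239 CPM by library. Slc5a3, also a myo-inositol transporter, showed a log2 difference of 0.27 (SE 0.25), and Slc45a1 one of 0.33 (SE 0.31). All 8 genes of sugar phosphorylation were tested and 0 passed, with 3 values above 0, 5 below 0 and a median of -0.10. Khk, the fructokinase, showed a log2 difference of -0.48 (SE 0.26). G6pc3, a glucose-6-phosphatase subunit, had one of -0.19 (SE 0.14) and was the only gene of this list whose groups did not overlap. Over all genes tested, the groups of 5.11% did not overlap. All 14 genes of GLUT trafficking and control were tested and 0 passed, with 7 values above 0, 7 below 0 and a median of -0.0028. Sort1, a sorting receptor of GLUT4 vesicles, showed a log2 difference of 0.25 (SE 0.15). It was the only gene of this list whose groups did not overlap, beside the same 5.11% of all genes tested. Lnpep, an aminopeptidase that travels with GLUT4 vesicles, had one of 0.37 (SE 0.28). Tbc1d4, a Rab GTPase-activating protein that holds GLUT4 vesicles inside the cell, had one of -1.05 (SE 1.01).

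Likeness between genes across the 7 IP libraries was measured by Pearson's r of log2 CPM and is given as a description, since points share depth and cell type composition. The genes named have the highest r among the 13296 genes tested. With only 7 points, such a search yields high values by selection alone. The gene most like Slc2a8 was Fgfr3, a growth factor receptor of astrocytes (r = 0.979, n = 7 libraries), followed by Fkbp15 (r = 0.966) and Pdyn (r = 0.945). For Slc2a3 these were Spata2l (r = 0.996), Crip1 (r = 0.995) and AC162528.2 (r = 0.993). For Slc2a1, whose highest level was only 1.10 times its lowest, they were Tmbim1 (r = 0.991), Ttc38 (r = 0.987) and Gnl1 (r = 0.977).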

How the data were processed

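Per the labels and the paper's methods, single-end Smart-seq2 reads (cortex IP RNA) were trimmed with cutadapt 1.15 and assigned by the authors to GENCODE vM17 transcripts (GRCm38) with kallisto 0.44.0. The deposited values are estimated counts per gene symbol, summed over transcripts and not normalized for depth or length. Kallisto splits reads among transcripts that share sequence.

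Of the 18 columns, 7 were used, 3 control IP and 4 cKO IP, as named in the study's source data. The other 11 columns were used in no step. They could be tied to samples only by their order or values, so input libraries, IP to input ratios and 2 of the 5 control IP samples in the labels were not analysed here.

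Counts were rounded to whole numbers. Genes were filtered with filterByExpr (13296 of 21923 kept), scaled by TMM and tested for genotype in R 4.3.3 by edgeR 4.0.16 (glmQLFit and glmQLFTest, quasi-likelihood), and p-values were adjusted by Benjamini-Hochberg with a threshold of 0.05. Standard errors and 95% intervals were derived from the F statistic. The fit was tested on simulated data. Alternatives were RLE and library-size scaling, other filters, DESeq2 1.42.0, edgeR's exact test, a neuron marker covariate and leaving out each library. log2 CPM for likeness used a prior count of 2, and the 3 genes with the highest r were named. A total of 3 counts is the detection floor, 0.0736 to 0.239 CPM by library, and covers counting error only. Per the labels each IP sample comes from its own animal, and p-values measure the spread between these libraries. Gene positions came from the RefSeq annotation of GRCm38.p6, where all 9 members were found by symbol. The members and lists were chosen with earlier results of these data known. All members are named, and of each list the 3 genes with the lowest p, except 1 gene that is not reported here.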

Additional observations from a re-analysis of the deposited data

Results flagged for a closer look

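Among the 4 IP libraries labelled cKO, the 9 GLUT genes were each examined for a library far from the other 3, and 1 was found where chance gives 0.450. This was Slc2a13 in AstroTRAP_17, at 29.4 CPM, while the remaining 3 cKO libraries averaged 15.3 CPM. AstroTRAP_17 was also the library of lowest depth, with 12570309 total counts, and had the highest neuron marker sum, 4329 CPM. The part of either in the Slc2a13 level was not tested.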

How the results depend on the processing

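No alternative called any of the 9 GLUT genes, and the lowest adjusted p for a member in the 14 alternatives, of which the neuron marker covariate was chosen after seeing the data, was 0.996 (without AstroTRAP_1, edgeR's quasi-likelihood test). Over all genes, 6 passed in the main fit, 18 with edgeR's exact test and 21 with DESeq2. When libraries were left out one by one, the sign of 5 members changed at least once, with log2 fold changes from -0.038 to 0.011 for Slc2a1, from -0.27 to 0.62 for Slc2a5, from -0.47 to 0.17 for Slc2a6, from -0.25 to 0.093 for Slc2a8 and from -0.73 to 0.26 for Slc2a10. The reversals came without AstroTRAP_11 or AstroTRAP_5 for Slc2a1 (0.011 and 0.0078), without AstroTRAP_17 for Slc2a5, without AstroTRAP_19 for Slc2a6, without AstroTRAP_11 for Slc2a8 and without AstroTRAP_15 for Slc2a10. The sign of Slc2a3, Slc2a4, Slc2a12 and Slc2a13 was the same in all 14 alternatives. The Slc2a1 level in the libraries labelled cKO was 99.1% of the control level, between 97.5% and 101% with one library left out, and 117% when scaled to Gja1, Aldh1l1 and Gfap (geometric mean) (exact two-sided permutation tests, p = 0.857 for the former and p = 0.4 for the latter). By library, the scaled level ran from 79.9% to 144% in the cKO group and from 89.8% to 112% in the control group. No other astrocyte marker was used for scaling. The cause of the shifts between settings was not tested. The planned comparisons of genotype in input, of IP with input and of their interaction were not run. No paired analysis was possible because the columns used carry no replicate numbers.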
